A study of Mus musculus with 4 samples.

Results

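The circadian clock genes measured here were Clock, Arntl (also called Bmal1), Per1, Per2, Per3, Cry1, Cry2, Nr1d1, Nr1d2 and Dbp, chosen by their names in the array annotation and not by their values. These 10 genes were among 37061 genes on the array. They were read by 25 probes, all well above background on all 4 arrays, so that no member was lost to the filter on dim signals. RNA was taken from hippocampus of Rp58 hetero-KO mice, in which 1 copy of Rp58 is knocked out, and of wild-type (WT) mice. Rp58, now named Zbtb18, encodes a zinc finger repressor of transcription. The groups were hetero-KO at 18 months, WT at 18 months, hetero-KO at 4 months and WT at 4 months. Each group was 1 array that held a mixture of 3 RNA samples, and there was no replicate array. The descriptions of the older groups give a range of 12 to 18 months and their titles 1.5 years. All mice were kept under 12 h of light and 12 h of darkness, with lights on at 8 AM. The sources used here do not give the hour at which tissue was taken, the deleted part of the gene, the strain or the sex of the mice.

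The mammalian clock is a loop of transcription and translation. CLOCK and its close relative NPAS2 pair with ARNTL, bind E-boxes and switch on the Period, Cryptochrome and Rev-erb genes (Nr1d1, Nr1d2) as well as the output gene Dbp. PER and CRY proteins come back to repress CLOCK and ARNTL, while the Rev-erb receptors repress Arntl and Npas2 and the ROR receptors activate them. In rodent tissues Dbp, the Rev-erb genes and the Period genes therefore peak during the day or around dusk, and Arntl and Npas2 peak in the late night or around dawn, with Cry1 later than the Period genes and Clock itself nearly flat. Tissue taken at a different hour could thus show these opposed sets displaced against each other. A small contrast between the sets does not show that the hour was the same. The hippocampus has such a clock, and Per1 there also responds to neuronal activity and to glucocorticoids. Peak hours in the hippocampus were not measured here and need not equal those of other tissues.

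Sequence around the start sites was searched for short elements through which the loop acts. Of the 10 members, 9 were matched to 13 start sites in the RefSeq promoter table (build GRCm38.p6), each with 250 bases before and 50 after the start. Per2 had no match and was not searched, and elements outside these windows were not looked for. Searched on both strands, the E-box CACGTG was present before 1 of the 2 start sites of Per1 and before Cry1. Its variant CACGTT was present before Cry1, Cry2 and Nr1d1. The D-box TTATGTAA, the element that DBP and its relatives bind, occurred 2 times before Per3. The alternative D-box TTACGTAA was counted with it and was not found in a member. Among all 32851 promoters of this length, 7.15% held CACGTG, 4.68% held CACGTT and 1.06% a D-box. The core of the ROR element, TAGGTCA, was found at base 31 after 1 of the 2 start sites of Arntl and in 2.61% of all promoters. Clock, Nr1d2 and Dbp held none of these letters in the windows searched. The stretches that hold the elements are shown for Per1, Cry1 and Per3, because these members stand for the E-box and D-box arms of the loop. Capitals mark the elements, and bases run 5′ to 3′ on the strand of the gene.
Per1 (chr11:69098753-69098818, plus strand, bases -196 to -131 from the start): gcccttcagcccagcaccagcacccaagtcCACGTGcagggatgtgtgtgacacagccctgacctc
Cry1 (chr10:85185079-85185163, minus strand, bases -109 to -25): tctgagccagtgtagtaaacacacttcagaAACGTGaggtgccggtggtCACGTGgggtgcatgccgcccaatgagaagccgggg
Per3 (chr4:151044786-151044900, minus strand, bases -235 to -121): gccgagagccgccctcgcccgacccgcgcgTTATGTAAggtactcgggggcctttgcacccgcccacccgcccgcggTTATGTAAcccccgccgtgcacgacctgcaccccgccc
The AACGTG of Cry1 is CACGTT read on the other strand. A match is a run of letters and does not show that a factor binds there.

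A level is the processed signal of the gene's probe divided by the 75th percentile of its array, and a gene with several probes is represented by the one with the highest mean level. Every member probe had 1 spot per array, and the scanner software gave a difference between a pair of arrays a spot error of 0.20 on the log2 scale (0.21 for Cry1). Probes printed in 5 or more spots varied less than that within an array, with a median SD of 0.03 (log2, 299 probes) on each of the 4 arrays. Neither value holds the variation between mice or pools. The 75th percentile of the signal lay between 1714 and 2111, and 77.9% to 81.9% of spots were well above background. All arrays lay on 1 slide and were scanned in 1 run, with each age in a row and each genotype in a column, so that place on the slide and group cannot be told apart. Zbtb18 had levels of 21.4 in hetero-KO and 18.9 in WT at 18 months, and 15.2 in hetero-KO and 17.5 in WT at 4 months, on a probe whose place relative to the deletion is unknown, so that it may not check the genotype. The Y-linked gene Eif2s3y had levels of 1.33 in hetero-KO and 1.30 in WT at 18 months and of 0.673 in WT at 4 months, whereas the hetero-KO array at 4 months gave no signal well above background for it. Xist was the reverse, with levels of 0.231 in hetero-KO and 0.164 in WT at 4 months and no signal well above background on the 18-month arrays, so the pools differed in sex makeup. The part of sex makeup in the clock gene values was not tested.

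By the brightest probe of each gene, the clock genes spanned less than 1.5-fold each over the 4 pools. The highest level over the lowest was 1.38-fold for Per2, 1.36-fold for Per1 and for Cry2, 1.31-fold for Dbp, 1.30-fold for Per3 and 1.28-fold for Nr1d1. It was 1.16-fold for Cry1 and for Nr1d2, 1.11-fold for Arntl and 1.05-fold for Clock. Of the members, 6 spanned 1.25-fold or more, against 39.3% of the 27179 genes measured on all 4 arrays, and none spanned 1.5-fold or 2-fold, against 14.7% and 4.45% of those genes. The median range was 0.37 on the log2 scale for the members and 0.26 for all genes. Per2, the widest member, was matched or exceeded in range by 22.4% of all genes, and Clock, the narrowest, by 95.5%. In the authors' deposited table the ranges were wider for several members and passed 1.5-fold for Per1 (1.08 in log2), Per2 (0.75) and Nr1d1 (0.61). With the probes of each gene averaged, only Nr1d1 and Dbp (0.36 each) reached 1.25-fold. Per1 then had 0.28, Cry2 0.21, Clock, Arntl and Per2 0.20 each, Per3 0.18, Nr1d2 0.12 and Cry1 0.05. No range of all genes is given for that setting.

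**Figure D1:**
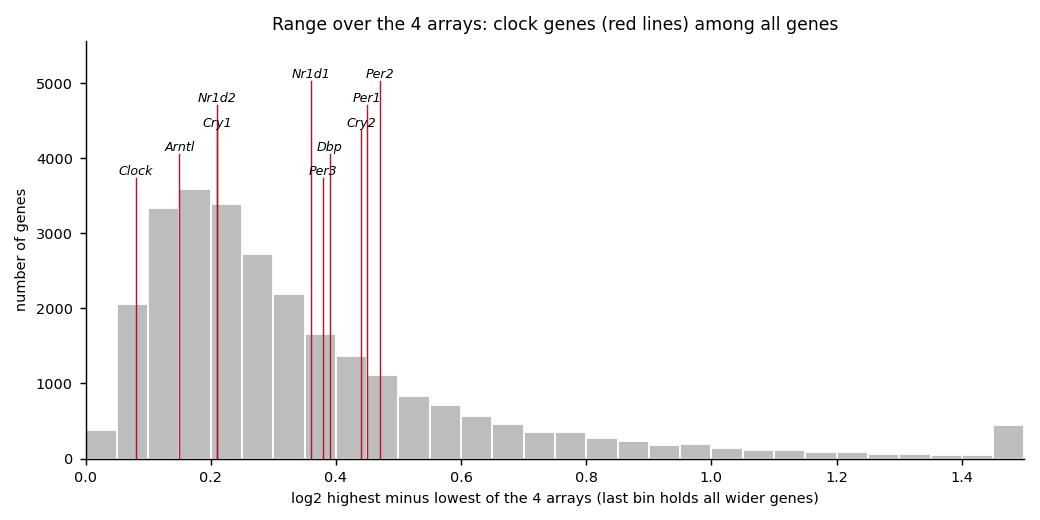
Histogram of the log2 range (highest minus lowest of the 4 arrays) over the 27179 genes measured on all arrays, with the 10 clock genes as red lines. The members lie between 0.08 (Clock) and 0.47 (Per2), and none reaches 1.5-fold.

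By the brightest probe of each gene, the activators were the steadiest members. With probes averaged per gene, Clock and Arntl each had a range of 0.20, and Per3, Nr1d2 and Cry1 had narrower ones. Clock, which encodes a partner of ARNTL at E-boxes, had levels of 4.77 in hetero-KO and 4.60 in WT at 18 months. At 4 months Clock had 4.62 in hetero-KO and 4.53 in WT. Its probe lies at chr5:76639992-76640051 (minus strand; all probe positions are in mm9). The 4 values overlapped within the spot error, and the additive model gave a genotype difference of 0.04 ± 0.04 and an age difference of 0.04 ± 0.04 (log2 ± SE, limma adjusted p = 0.724 and 0.68). Of the dimmer Clock probes, the dimmest, spanning chr5:76658557-76659217, was higher in hetero-KO by 0.47 at both ages. The one at chr5:76664578-76664637 was lower at 18 months, by 0.09 in hetero-KO and 0.20 in WT. The one at chr5:76641377-76641436 differed by 0.13 or less in each pair of arrays. Arntl, the partner without which the loop stops in mice, had levels of 1.23 in hetero-KO and 1.21 in WT at 18 months, and 1.19 in hetero-KO and 1.32 in WT at 4 months (chr7:120456978-120457037, plus strand). WT at 4 months was the highest array for Arntl, by less than the spot error. Both dimmer probes were highest in that array as well. The probe spanning chr7:120435023-120436706 had levels of 0.226 in hetero-KO and 0.209 in WT at 18 months, and 0.224 in hetero-KO and 0.254 in WT at 4 months. The probe at chr7:120439030-120439089 had levels of 0.186 in hetero-KO and 0.215 in WT at 18 months, and 0.227 in hetero-KO and 0.232 in WT at 4 months. Genotype and age terms for Arntl were −0.06 ± 0.07 and −0.04 ± 0.07 (limma adjusted p = 0.741 and 0.763).

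Period genes varied more, and WT at 4 months was the lowest array for all 3 of them. Per1, a repressor of the loop and the Period gene most open to acute induction, had levels of 9.42 in hetero-KO and 8.34 in WT at 18 months, and 8.26 in hetero-KO and 6.91 in WT at 4 months (chr11:68923364-68923423, plus strand). Its level was higher in hetero-KO at each age and higher at 18 months in each genotype. The genotype difference was 0.22 ± 0.04 and the age difference 0.23 ± 0.04 (log2 ± SE, limma adjusted p = 0.278 and 0.0741), so neither passed. Per2, the partner of Per1 in the repressor complex, had levels of 2.92 in hetero-KO and 2.95 in WT at 18 months, and 2.82 in hetero-KO and 2.14 in WT at 4 months (chr1:93312595-93312654, minus strand). Only WT at 4 months stood apart, 0.40 below its nearest neighbour on the log2 scale, and the other 3 arrays lay within the spot error of each other. The model, which takes such a pattern as error, gave 0.19 ± 0.11 for genotype and 0.26 ± 0.11 for age (limma adjusted p = 0.536 and 0.246). Per3, a Period gene that the core loop can run without, had levels of 0.824 in hetero-KO and 0.931 in WT at 18 months, and 0.748 in hetero-KO and 0.715 in WT at 4 months (chr4:150385608-150385667, minus strand). Both 18-month arrays were above both 4-month arrays for Per3, with an age difference of 0.26 ± 0.08 (limma adjusted p = 0.149).

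The other probes of the Period genes did not all follow. A dim Per2 probe at chr1:93336538-93336597 had levels of 0.048 in hetero-KO and 0.0546 in WT at 18 months, and 0.0435 in hetero-KO and 0.0583 in WT at 4 months, which puts WT at 4 months highest. A dim Per1 probe for a cDNA at chr11:68919895-68919954 was lower in hetero-KO at both ages, by 0.33 at 18 months and 0.40 at 4 months on the log2 scale. Both of these lie far below the main probes in signal, and the sources used here do not say which transcripts they read. For Per3, the probe at chr4:150378473-150378532 was also higher at 18 months, by 0.09 in hetero-KO and 0.17 in WT, and the probe at chr4:150406022-150406081 by 0.06 in hetero-KO and not in WT (−0.00).

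**Figure D2:**
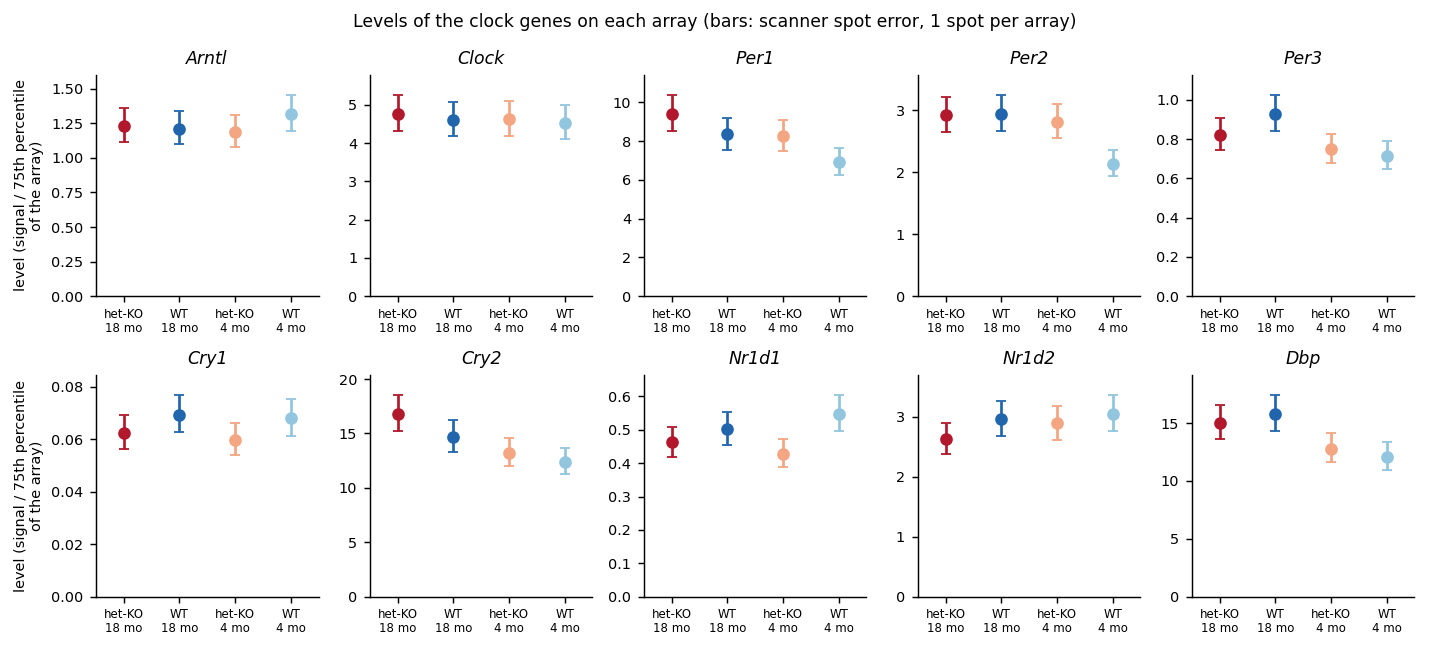
Level of each clock gene (signal over the 75th percentile of the array, linear axis from 0) on the 4 arrays, as points with the scanner software's spot error. Per1, Per2 and Cry2 are lowest in WT at 4 months, while Clock and Arntl are nearly level.

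The 2 Cryptochromes, the repressors that act with PER, differed from each other. Cry2 had levels of 16.8 in hetero-KO and 14.7 in WT at 18 months, and 13.2 in hetero-KO and 12.4 in WT at 4 months (chr2:92243807-92243866, minus strand). As for Per1, both 18-month arrays were higher than both 4-month arrays and hetero-KO was higher at each age. The age difference of 0.30 ± 0.05 was 1.23-fold and just missed the threshold (limma adjusted p = 0.0557), and the genotype difference was 0.14 ± 0.05 (limma adjusted p = 0.39). Among genes measured on all 4 arrays alone, and with normexp background, the age difference of Cry2 passed. It was 0.16 with quantile normalization and 0.17 with the probes averaged, and passed in neither. With the variance trend dropped it did not pass. Probes on other Cry2 transcripts showed less: the one at chr2:92265472-92265531 was higher at 18 months by 0.19 in hetero-KO and 0.14 in WT, and the one at chr2:92251417-92251476 by 0.08 and 0.02. Cry1, which gives the loop much of its delay, had levels of 0.0625 in hetero-KO and 0.0694 in WT at 18 months, and 0.0599 in hetero-KO and 0.0680 in WT at 4 months (chr10:84647094-84647153, minus strand). Neighbouring values of Cry1 did not differ beyond the spot error, and a second probe at chr10:84594731-84594790 was higher in hetero-KO where the first was lower, by 0.16 at 18 months and 0.14 at 4 months.

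Of the Rev-erb receptors, Nr1d1 (REV-ERB alpha) had levels of 0.462 in hetero-KO and 0.502 in WT at 18 months, and 0.427 in hetero-KO and 0.548 in WT at 4 months, from its only probe (chr11:98630526-98631028, minus strand). It was lower in hetero-KO at each age, by 0.12 at 18 months and 0.36 at 4 months, with a genotype difference of −0.24 ± 0.08 (limma adjusted p = 0.417). Nr1d2 (REV-ERB beta) had levels of 2.63 in hetero-KO and 2.96 in WT at 18 months, and 2.89 in hetero-KO and 3.05 in WT at 4 months (chr14:19036859-19036918, minus strand). Its genotype difference was −0.12 ± 0.05 (limma adjusted p = 0.453), and neighbours in the order did not differ beyond the spot error. The Nr1d2 probe at chr14:19036568-19036627 had levels of 2.31 in hetero-KO and 2.39 in WT at 18 months. At 4 months it had 2.26 in hetero-KO and 2.21 in WT. The Nr1d2 probe at chr14:19037253-19037312 had 1.29 in hetero-KO and 1.44 in WT at 18 months. At 4 months it had 1.38 in hetero-KO and 1.30 in WT. The age difference was −0.01 ± 0.08 for Nr1d1 and −0.09 ± 0.05 for Nr1d2 (limma adjusted p = 0.977 and 0.358).

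Dbp, a transcription factor of the PAR bZIP family and a direct output of CLOCK and ARNTL, had levels of 15.0 in hetero-KO and 15.8 in WT at 18 months, and 12.8 in hetero-KO and 12.1 in WT at 4 months (chr7:52965461-52965520, plus strand). Both 18-month arrays were above both 4-month arrays, and the step between the ages was the only one beyond the spot error. The age difference was 0.31 ± 0.05, or 1.24-fold (limma adjusted p = 0.0645), and the genotype difference 0.01 ± 0.05 (limma adjusted p = 0.964). Its second probe, at chr7:52965265-52965324, gave age differences of 0.20 in hetero-KO and 0.33 in WT, close to 0.23 and 0.39 for the first.

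No member passed the test for genotype or for age by limma with Benjamini-Hochberg adjustment over the 28871 genes tested, where 0.0104% of genes passed for genotype and 1.73% for age. At an unadjusted p under 0.05, 3 members differed by genotype (Per1 and Cry2 higher, Nr1d1 lower), against 11.4% of all genes. For age, 4 members were higher at an unadjusted p under 0.05 (Cry2, Dbp, Per1 and Per3) and none was lower, against 16.8% of all genes higher, 6.87% lower and 23.7% in either direction. This fit has 1 residual degree of freedom, so that a p-value here sets a difference against how 4 arrays of mixed RNA scatter, and says nothing of the scatter among mice.

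Between single pairs of arrays a difference has no test, and 1.25-fold was used to count members. Hetero-KO against WT at 18 months gave no member at 1.25-fold, where 14.5% of genes reached it, and the median of the members was −0.05 against −0.01 for all genes. At 4 months, Per2 was 1.32-fold higher and Nr1d1 1.28-fold lower in hetero-KO, where 14.7% of genes reached 1.25-fold in either direction, and the median was 0.05 against −0.02. In hetero-KO, 18 against 4 months gave 1 member, Cry2, 1.27-fold higher, where 11.1% of genes were that much higher and 18.8% that much higher or lower, and in WT it gave Per2, Per3 and Dbp, 1.38-fold, 1.30-fold and 1.31-fold higher, where 8.33% of genes were (16.2% in either direction). Age medians were 0.09 in hetero-KO and 0.14 in WT, against 0.04 for all genes in each. No member reached 2-fold in any pair. Of all genes, 1.15% did for hetero-KO against WT at 18 months, 1.34% for the same at 4 months, 2.21% for age in hetero-KO and 1.6% for age in WT. The pairs share arrays: WT at 4 months enters both the 4-month comparison and the age comparison in WT, and Per2 was counted in both.

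**Figure D3:**
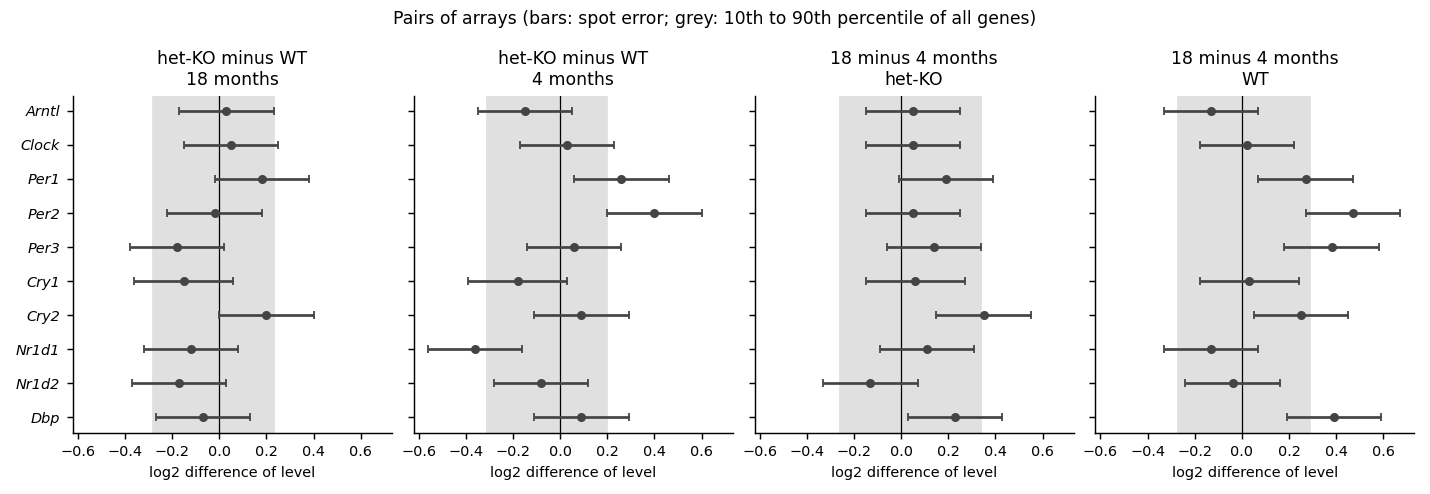
Log2 differences of the 10 clock genes in the 4 pairs of arrays, as points with the spot error of a difference, over a grey band from the 10th to the 90th percentile of all genes. Most points lie inside the band. Outside it lie Per1, Per2 and Nr1d1 between genotypes at 4 months, and Per2, Per3 and Dbp for age in WT. Cry2 lies just outside it for age in hetero-KO.

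Whether the pools show different clock phases was read from genes with opposed peak times, each centred on its own mean over the 4 arrays. Npas2, which is not among the 10 clock genes, was added to the night set, and Cry2 was placed in neither set. The 6 genes that peak by day or dusk (Per1, Per2, Per3, Nr1d1, Nr1d2 and Dbp) averaged 0.05 in hetero-KO and 0.11 in WT at 18 months, and −0.05 in hetero-KO and −0.11 in WT at 4 months (log2). The 4 set against them (Arntl, Clock, Cry1 and Npas2) averaged −0.03 in hetero-KO and −0.04 in WT at 18 months, and 0.02 in hetero-KO and 0.05 in WT at 4 months. The first set minus the second was thus 0.08 and 0.15 in hetero-KO and WT at 18 months and −0.07 and −0.16 in hetero-KO and WT at 4 months. Between genotypes this contrast differed by −0.07 at 18 months and 0.09 at 4 months, and between ages by 0.15 in hetero-KO and 0.31 in WT. On the probes used, members within the day set did not move as one. Nr1d1 and Nr1d2 were highest in WT at 4 months, where Per1, Per2, Per3 and Dbp were lowest. For Nr1d2 this rested on the main probe, and its other probes were highest in WT at 18 months. In the night set, Arntl was highest in the same WT array at 4 months, and Npas2, at levels of 0.0322 in hetero-KO and 0.0306 in WT at 18 months and 0.0418 in hetero-KO and 0.0368 in WT at 4 months, had the widest range of the set. Without Npas2, an alternative added after the data were seen, the night set averaged −0.00 in hetero-KO and 0.02 in WT at 18 months, and −0.06 in hetero-KO and 0.04 in WT at 4 months. The contrast was then 0.05 in hetero-KO and 0.09 in WT at 18 months, and 0.01 in hetero-KO and −0.15 in WT at 4 months, and its age difference was 0.04 in hetero-KO and 0.25 in WT. The opposite signs of the ages in hetero-KO thus rested on Npas2. With the probes of each gene averaged, the genotype difference of the contrast at 4 months turned to −0.11. An hour of collection cannot be read from these values, since no pool of known hour was measured.

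**Figure D4:**
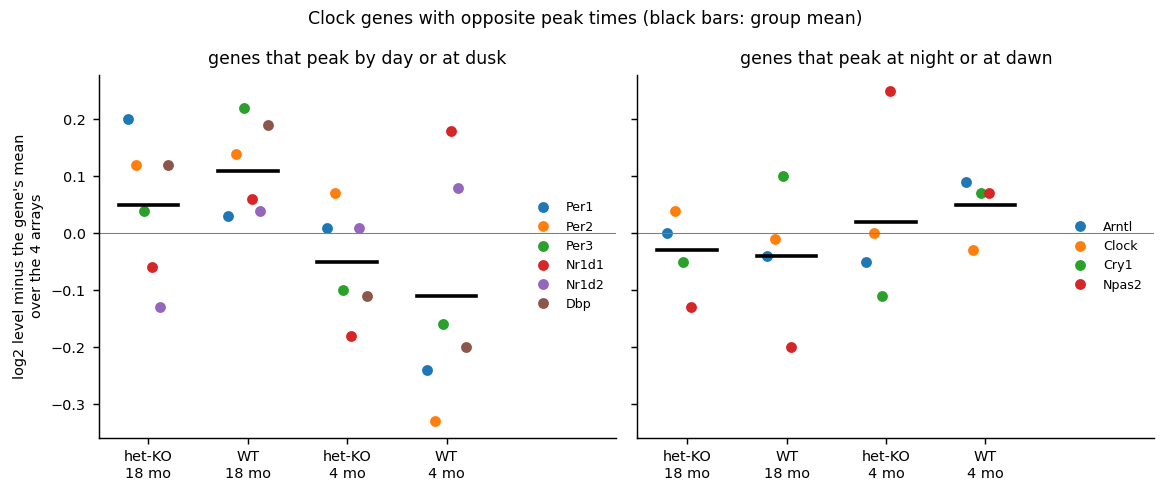
Log2 level minus the gene's own mean over the 4 arrays, for 6 clock genes that peak by day or dusk (left) and for the set placed against them (right: Arntl, the nearly flat Clock, Cry1 and Npas2), with black bars for the mean of each set. The day set averages 0.05 and 0.11 at 18 months and −0.05 and −0.11 at 4 months. On the probes plotted, Nr1d1 and Nr1d2 are out of step with the Period genes.

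Other genes of the clock pathway were taken from a list of 23, all measured on all 4 arrays. None passed for genotype, and for age 3 fell and 0 rose, where 1.73% of all genes passed in either direction. The median age difference of the list was −0.04 against 0.04 for all genes. Rora, a receptor that activates Arntl at ROR elements, fell at 18 months, with levels of 5.28 in hetero-KO and 5.20 in WT, against 9.43 in hetero-KO and 11.6 in WT at 4 months (log2 −0.99 ± 0.08, limma adjusted p = 0.0346). Vipr2, the receptor for the peptide VIP that couples clock neurons in the suprachiasmatic nucleus, fell to 0.0645 in hetero-KO and 0.0475 in WT at 18 months, against 0.484 in hetero-KO and 0.502 in WT at 4 months (log2 −3.15 ± 0.14, limma adjusted p = 0.0109). Hlf, a PAR bZIP factor like Dbp, fell by 0.40 ± 0.04 on the log2 scale (limma adjusted p = 0.0457). Its relative Tef had an age difference of 0.28 ± 0.04 in the direction of Dbp (limma adjusted p = 0.0513). Ciart, a repressor of CLOCK and ARNTL, had 0.35 ± 0.10 (limma adjusted p = 0.143), and the kinase gene Csnk1d, whose product marks PER for decay, 0.16 ± 0.04 (limma adjusted p = 0.0981). Rorb, a receptor of the ROR family, had −0.44 (limma adjusted p = 0.0772), while Usp2, a deubiquitinase gene, had 0.24 (limma adjusted p = 0.0988). Bhlhe40, Bhlhe41, Btrc, Timeless and Wee1 differed by age by 0.12 or less. Of genotype differences in the list, the largest were those of Vip (0.41 ± 0.08, limma adjusted p = 0.264) and Nfil3, the repressor at D-boxes (0.23 ± 0.06, limma adjusted p = 0.335).

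Markers of neighbouring tissue differed between the pools, each kind in its own way. The 11 thalamus and habenula markers, 9 of them well above background on all arrays, summed to 10.3 in hetero-KO and 9.75 in WT at 18 months, against 21.9 in hetero-KO and 26.5 in WT at 4 months, in the direction of Rora and Vipr2. The 9 striatum markers summed to 22.9 in hetero-KO and 21.3 in WT at 18 months, and to 51.1 in hetero-KO and 21.1 in WT at 4 months, so that hetero-KO at 4 months stood alone. The 10 choroid plexus markers summed to 101 in hetero-KO and 126 in WT at 18 months, and to 86.7 in hetero-KO and 107 in WT at 4 months, and all 10 were lower in hetero-KO at both ages (medians −0.79 at 18 months and −0.42 at 4 months). Hippocampal markers were present on all arrays: the 6 markers of CA pyramidal cells summed to 34.8 in hetero-KO and 37.3 in WT at 18 months, and to 26.8 in hetero-KO and 30.8 in WT at 4 months. The 6 markers of the suprachiasmatic nucleus summed to 1.06 in hetero-KO and 1.05 in WT at 18 months, and to 1.05 in hetero-KO and 0.791 in WT at 4 months, with Six6 not well above background on all arrays. Vip, named above, made up much of these sums. Its levels were 0.547 in hetero-KO and 0.443 in WT at 18 months, and 0.607 in hetero-KO and 0.423 in WT at 4 months. The part of these tissues in the clock gene values was not tested, and in such bulk samples fewer cells of a type and less RNA per cell cannot be told apart.

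Genes that respond to the same signals as Per1 were described beside it. Immediate early genes, induced by neuronal activity, were higher in hetero-KO for 13 of 16 members at 18 months and 14 of 16 at 4 months. Their median was 0.16 at 18 months, against −0.01 for all genes, and 0.31 at 4 months, against −0.02. Over both ages none of them passed for genotype, the largest difference being that of Egr2 (0.61 ± 0.14, limma adjusted p = 0.302). For age, Fos and Btg2 fell (limma adjusted p = 0.0354 and 0.0480) and none rose, where 1.73% of all genes passed in either direction. Genes induced by glucocorticoids were higher in hetero-KO for all 14 members at 18 months (median 0.26, against −0.01 for all genes). At 4 months 10 of 14 were higher in hetero-KO (median 0.12, against −0.02). None of the glucocorticoid-induced genes passed for genotype over both ages. For age, 5 of these 14 rose (Fkbp5, Sgk1, Zbtb16, Nfkbia and Plin4), where 1.73% of all genes passed in either direction. Whether past the threshold or not, 13 of 14 were higher at 18 months (median 0.27, against 0.04 for all genes). Sgk1, a kinase gene, had levels of 21.2 in hetero-KO and 16.2 in WT at 18 months, and 14.4 in hetero-KO and 9.67 in WT at 4 months. Like Per1 and Cry2, it was highest in hetero-KO at 18 months and lowest in WT at 4 months. The part of either response in the Per1 values was not tested.

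A few genes that respond to temperature differed in 1 pool. Of the 12 listed, 3 reached 1.25-fold between hetero-KO and WT at 4 months (Rbm3, Cirbp and Hspa5), where 14.7% of all genes did, and the median of the list was 0.13. Rbm3 and Cirbp, RNA-binding proteins made at lower temperature and, in rodents, cycling with the daily swing of body temperature, were lowest in hetero-KO at 4 months. Rbm3 had levels of 7.86 in hetero-KO and 8.37 in WT at 18 months, and 5.42 in hetero-KO and 8.89 in WT at 4 months. Cirbp had levels of 5.57 in hetero-KO and 5.64 in WT at 18 months, and 3.77 in hetero-KO and 5.35 in WT at 4 months. The other 3 arrays lay close together for both genes. In the same 4-month comparison Hspa5, a chaperone of the endoplasmic reticulum, was higher by 0.43 and Dnajb1, a partner of HSP70, by 0.28 in hetero-KO. At 18 months the differences between genotypes were −0.09 for Rbm3, −0.02 for Cirbp, 0.02 for Hspa5 and 0.02 for Dnajb1. None of the 12 temperature-responsive genes passed for genotype or for age over all arrays (for Rbm3, genotype −0.40 ± 0.15, limma adjusted p = 0.433), and the model takes a difference at 1 age as error. The array that stood apart for Rbm3 and Cirbp was hetero-KO at 4 months. For Per2, by its main probe only, it was WT at 4 months. The part of temperature or of the hour of collection in these values was not tested.

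By likeness of profile over the 4 arrays, Per2 had its nearest genes among 19197 with an official symbol at log2 distances of 0.031 (Pck2), 0.032 (Gsdma), 0.035 (Olfr318), 0.045 (Muc13) and 0.058 (Rpusd2). Pck2, a mitochondrial enzyme of glucose synthesis, had levels of 2.09 in hetero-KO and 2.07 in WT at 18 months, and 1.97 in hetero-KO and 1.52 in WT at 4 months. Many genes can match a profile of 4 points, and the other 4 were dim, with levels below 0.04.

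The authors' deposited table differed from the scanner files in its 18-month columns. Its 4-month columns equal the scanner signal times a constant, within 1% for all spots. Its 18-month columns are no constant multiple of a scanner array, the highest correlation with one being 0.985 in log2, and their source arrays are unknown. The column medians, of linear values not centred by gene, were 0.0987 in hetero-KO and 0.0998 in WT at 18 months, and 0.103 in hetero-KO and 0.107 in WT at 4 months. In the authors' deposited table, Per1 stood at 14.6 in hetero-KO and 12.9 in WT at 18 months, against 8.21 in hetero-KO and 6.87 in WT at 4 months. Arntl, of opposite peak time, was higher there as well, at 1.65 in hetero-KO and 1.61 in WT at 18 months, against 1.19 in hetero-KO and 1.31 in WT at 4 months. Nr1d2 stood at 3.93 in hetero-KO and 4.09 in WT at 18 months in the authors' deposited table, against 2.87 in hetero-KO and 3.04 in WT at 4 months. Between the 18-month columns of hetero-KO and WT no member differed by 1.25-fold, where 11.6% of genes did, while between the ages 6 members in hetero-KO and 4 in WT did, where 33.8% and 36.9% of genes did. With the same centring, the day set was higher at 18 months by 0.31 in hetero-KO and 0.40 in WT in the authors' deposited table, and the night set by 0.42 and 0.32, so that both sets had the same sign. No test was made on this table beyond the alternative fit given in the closing section, since it holds 1 column per group and the origin of its 18-month columns is unknown.

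**Figure D5:**
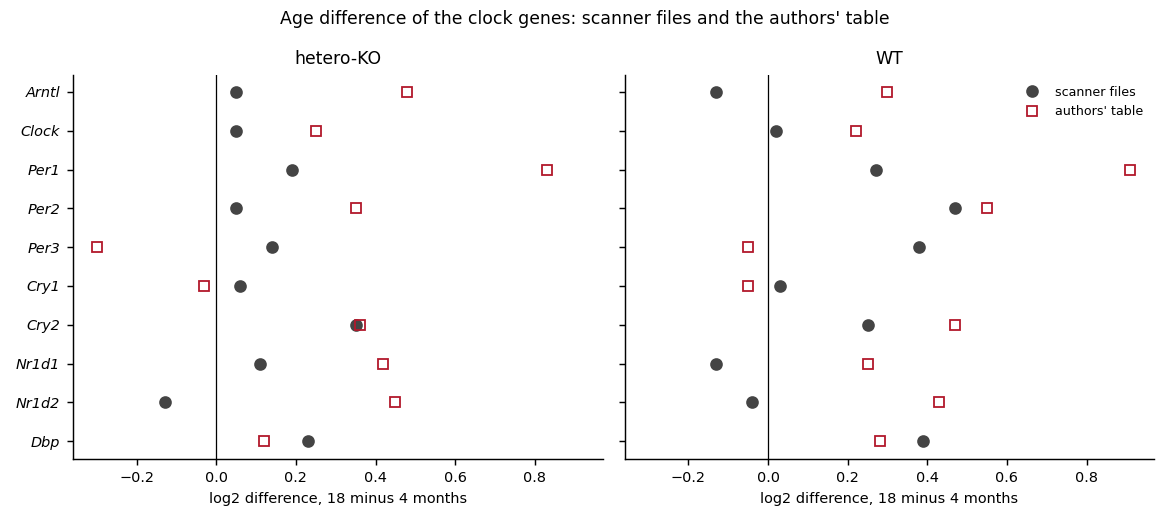
Log2 difference of 18 minus 4 months for each clock gene in hetero-KO (left) and WT (right), from the scanner files (filled circles) and from the authors' table (open squares). Per1 lies at 0.19 and 0.27 in the scanner files and at 0.83 and 0.91 in the table, and Arntl is on the higher side in the table in both genotypes.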

How the data were processed

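Labelled RNA (Cy3) of each mixture was read on 1 Agilent array per group. Per the file headers, the deposited values are spot intensity from Agilent Feature Extraction 11.5.1.1, detrended and background-subtracted, with build mm9. The authors' deposited series table gives a ratio on a linear scale, each array's 75th percentile standing near 1. Each spot's intensity was put on a log2 scale and set against the 75th percentile of its array, computed without control spots and outlier spots; repeated spots were averaged. A probe needed 50% of its spots well above background to count as measured. Of 56605 probes, 32994 matched a RefSeq accession (GRCm38.p6, names only). The 28871 genes measured on 2 or more of the 4 arrays entered a limma 3.58.1 fit (R 4.3.3) with 1 term each for genotype and age, moderated by eBayes with trend; adjusted p-values are Benjamini-Hochberg, threshold 0.05. The fit was first tested on simulated data. Members, lists, thresholds and tests were chosen with earlier results of these data known. The text names all members, genes of the pathway list, those at the ends of the other lists or past the test, and the 5 genes nearest to the widest member. Some genes of the pathway list are not reported here. Dnajb1 was named after its values were seen. Alternatives were quantile and median scaling, normexp background (offset 50), the mean of a gene's probes, the authors' table, other filters, no variance trend and a model of 1 term.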

Additional observations from a re-analysis of the deposited data

Results flagged for a closer look

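Some members had opposite signs in the groups compared, and with 1 array per group these differences of differences were not tested. For hetero-KO minus WT, the value at 18 months minus that at 4 months was −0.42 for Per2, −0.24 for Per3, −0.16 for Dbp and 0.18 for Arntl on the log2 scale. For 18 minus 4 months, the value in hetero-KO minus that in WT was 0.24 for Nr1d1 and 0.18 for Arntl.

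The 18-month columns of the authors' deposited table, which match no scanner file, showed differences from the 4-month columns of at least 1.25-fold in both genotypes for 4 members, in a table where 33.8% of all genes in hetero-KO and 36.9% in WT differ that much between the ages. On the log2 scale the authors' deposited table gave 0.83 in hetero-KO and 0.91 in WT for Per1, 0.35 and 0.55 for Per2, 0.36 and 0.47 for Cry2, and 0.45 and 0.43 for Nr1d2. The origin of these columns was not tested.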

How the results depend on the processing

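No member passed for genotype under any alternative run. For age, 0 members passed by scanner values at the settings reported, 1 (Cry2) among genes measured on all 4 arrays, 2 (Cry2 and Dbp) with normexp background and 8 with the authors' table, where Per3 and Cry1 did not. Genes past the threshold for genotype were 3 as reported, 14 with normexp, 10 when measured on all 4 arrays, 8 with the authors' table, 1 with probes averaged per gene, 1 with the genotype term alone, and 0 when dim probes stayed in or when the trend was dropped. For age they were 500 as reported, 66.4% of them higher, and 167 with quantile normalization (31.1% higher), 322 with median scaling (61.5%), 1351 with normexp (78.5%), 832 when measured on all 4 arrays (73.6%), 14 with probes averaged per gene (28.6%), 9842 with the authors' table (46.5%), 114 with the age term alone (43.9%), and 0 in those same 2 settings. At an unadjusted p under 0.05, limma gave 3301 genes for genotype and 6838 for age as reported, 3452 and 7074 with dim probes kept in, and 2827 and 4486 with the trend dropped.

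With probes averaged per gene the genotype term turned to −0.07 for Per1, −0.06 for Per2 and −0.04 for Dbp, the age term to −0.04 for Clock, −0.03 for Cry1 and 0.00 for Nr1d2, and the 4-month genotype difference of Per2 to −0.01. These averages weight dim probes like bright ones. The age term of Clock was −0.03 with quantile normalization and that of Nr1d1 0.00 with median scaling. Quantile normalization also lowered the age terms of Cry2 to 0.16, Dbp to 0.18 and Per1 to 0.14, while that of Per3 stayed at 0.26. With the authors' table the age term turned to 0.39 for Arntl, −0.17 for Per3, −0.04 for Cry1, 0.33 for Nr1d1 and 0.44 for Nr1d2, the age difference of Per3 in WT to −0.05, and the median age difference of the members in hetero-KO was 0.35. The cause was not tested. No paired analysis was possible because each group holds 1 array, so that no replicate number can be a block; the fit as reported already holds the other factor, and the fits with 1 term alone are those without it. The day set minus the night set turned sign with the authors' table in hetero-KO, to −0.05 at 18 months and 0.05 at 4 months, and its age difference to −0.11 in hetero-KO (0.07 in WT). With probes averaged per gene the range of Per2 over the arrays was 0.20 and that of Cry2 0.21, so that Per2 was no longer widest. No array could be left out, since each pair holds 1 array per side. Precision is limited by there being 4 arrays.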
